A study of Mus musculus with 12 samples.

Results

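The genes described here are the CC and CXC chemokines and their receptors, taken as mouse genes whose symbol begins with Ccl, Cxcl, Ccr or Cxcr followed by a digit. Of 54838 genes in the count tables, 54 chosen by such a symbol are covered, and 47 of them had at least 10 counts in at least 3 of the 12 libraries. These 47 comprised 18 of 25 CC ligands, 13 CXC ligands, 10 CC receptors and 6 CXC receptors. The rule used symbols and a count minimum and no comparison between groups, but it was set with earlier results of these data known. Of the 47, 46 passed the filter for testing, and Ccl20 did not.

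Control mice (Olig1+/+;Tet1fl/fl) were compared with Tet1 mutant mice (Olig1cre/+;Tet1fl/fl) at postnatal day 60. Both genotypes carried the floxed Tet1 alleles, and only the mutants carried cre, inserted at the Olig1 locus, which deletes Tet1 in cells that have expressed Olig1, the oligodendroglial lineage among them. RNA was taken 4 days after injection of lysolecithin (LPC), a detergent-like lipid that strips myelin at the injection site, a time called 4dpl, and from unlesioned tissue of the opposite side of the spinal cord. Each of the 4 groups (control unlesioned, control 4dpl, mutant unlesioned and mutant 4dpl) had 3 libraries, and which libraries shared a mouse is not given in the sources used here, so the p-values measure the spread between these libraries. The cells were enriched on a Percoll density gradient and not sorted.

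Chemokines are small secreted proteins that direct the migration of cells by binding G protein-coupled receptors, and the CC and CXC families are told apart by the spacing of their first cysteines. Most receptors bind several ligands and most inflammatory ligands bind several receptors. In the injured nervous system microglia, astrocytes and vascular cells are known sources of ligands, and neutrophils, monocytes, lymphocytes and microglia carry most of the receptors.

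Total counts were between 34805086 and 67251544 per library. Levels are given as CPM, counts scaled to library size with TMM normalization, and, where genes are compared with each other, as CPM per kilobase of exon. Tet1 lay between 9.94 and 21.5 CPM and the genotypes overlapped. A count over the whole gene takes in exons outside the deleted part and does not check the genotype, which was taken from the labels. Markers of 15 cell types were read as summed CPM per list, and no marker was at 0 in any library. The oligodendrocyte list (Mog, Mag, Mbp, Mobp and Cldn11) summed to between 6810 and 27400 CPM, the neutrophil list (S100a8, S100a9, Ly6g, Retnlg, Mmp8, Camp and Ltf) to between 17890 and 97020 CPM and the microglia list (P2ry12, Tmem119, Cx3cr1, Siglech, Sall1 and Gpr34) to between 1016 and 4530 CPM. The preparation therefore held RNA of many chemokine-producing and chemokine-sensing cells, and in such bulk samples fewer cells of a type and less RNA per cell cannot be told apart.

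A few genes carried most of the chemokine RNA. Among the ligands, 6 genes accounted for 89.9% of the summed level per kilobase over the 12 libraries. They were Ccl4 and Ccl3, which recruit macrophages and T cells, Ccl12 and Ccl2, ligands of Ccr2, Ccl6, a ligand of Ccr1, and Cxcl2, a ligand of Cxcr2. Ccl4 was at a mean of 598 CPM per kilobase (202 to 961) and Ccl3 at 525 (220.3 to 875), ranges that overlapped almost wholly, so that these neighbours in the order were not apart beyond their spread. Ccl12 followed at 284 CPM per kilobase (115 to 500.0), Ccl6 at 217 (113 to 362), Ccl2 at 192 (76.3 to 326) and Cxcl2 at 151 (76.5 to 317). The ranges of each of these neighbours overlapped as well. Cxcl14, at 7.90 CPM per kilobase (1.05 to 17.1), ranked 12 of 31 ligands. The 19 ligands below it each held under 0.24% of the ligand level, down to Ccl20 at 0.0845 CPM per kilobase.

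Among the receptors, 4 genes held 87.6% of the level per kilobase. Cxcr2, the neutrophil receptor for Cxcl1, Cxcl2 and Cxcl3, was highest at 64.8 CPM per kilobase (25.4 to 126). Ccr1, carried by neutrophils and monocytes, was at 47.5 CPM per kilobase (21.7 to 90.3), Cxcr4, the receptor for Cxcl12, at 20.3 (10.9 to 33.8), and Ccr2, which marks inflammatory monocytes, at 14.1 (8.09 to 24.3). The ranges of neighbours overlapped throughout this order, as the plot of levels per kilobase shows.

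**Figure D1:**
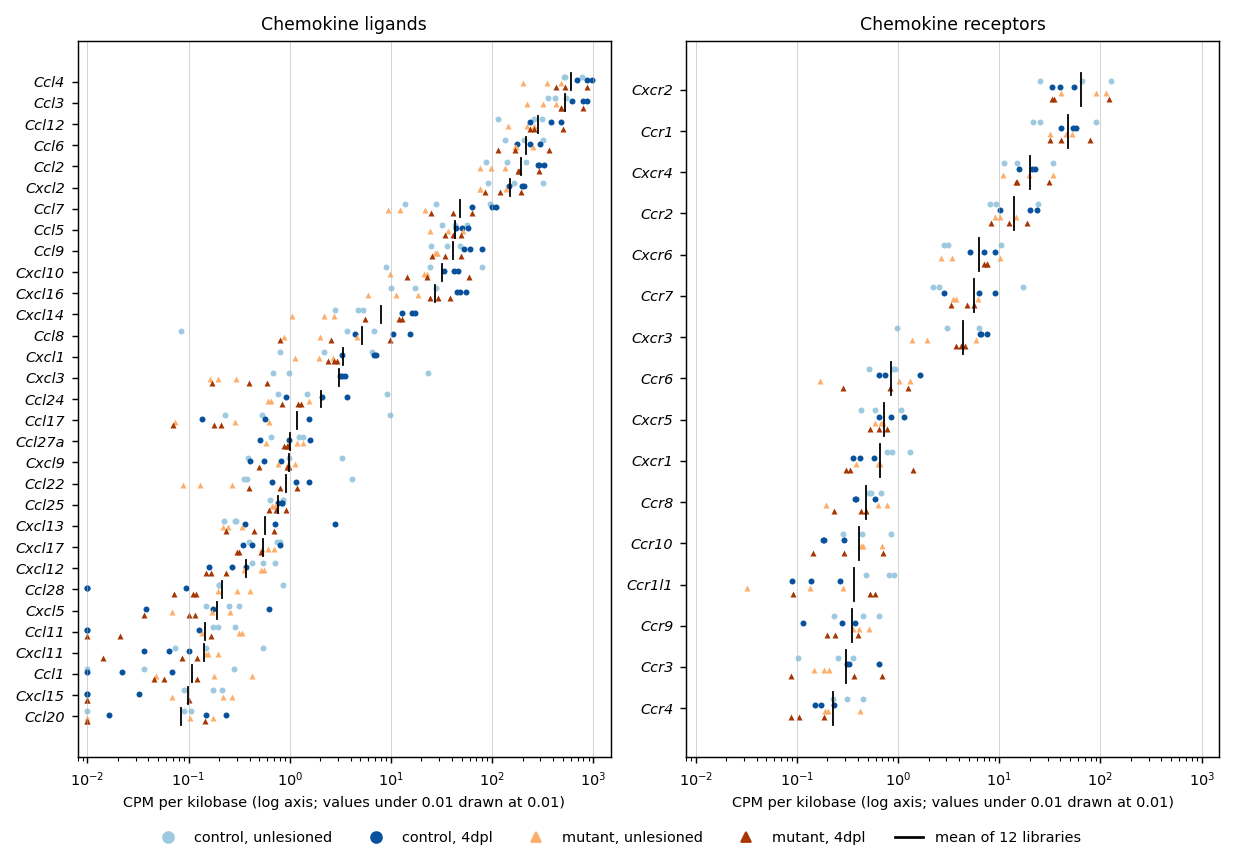
CPM per kilobase of exon (log axis) of the 31 ligands and 16 receptors described, ordered by their mean over the 12 libraries (black line), with 1 point per library coloured by group. Ccl4 at 598 and Cxcr2 at 64.8 CPM per kilobase head the ligands and the receptors, and the levels below them fall by several orders of magnitude.

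The libraries differed in their chemokine RNA before any comparison of groups. Replicate 1 of the control unlesioned group was the highest of all 12 libraries for 16 of the 47 members, and its level exceeded that of the next library of its group by over 2 times for 15 members and by over 5 times for 5 members. These 5 were Cxcl3 (23.7 times), Ccl17 (18.1 times), Ccl22 (10.9 times), Ccr7 (6.68 times) and Ccl24 (6.24 times). Ccl17 and Ccl22 are ligands of Ccr4 made by activated dendritic cells, and Ccr7 is the receptor that guides those cells to lymph nodes. The dendritic cell list (Flt3, Xcr1, Clec9a, Zbtb46, Cd209a and Ccr7) summed to 64.4 CPM in that library and to at most 39.4 CPM in the others. Ccr7, itself among the 5, supplied 33.7 CPM of that sum, so the list is not a separate check. Clec9a was also highest there, at 3.51 CPM, whereas Flt3, Xcr1, Zbtb46 and Cd209a were each higher in another library. The T cell and natural killer cell lists were highest in that library too, at 119 and 89.2 CPM. Replicate 1 thus stood apart from replicates 2 and 3 of its group for a minority of the members, and the counts and the changes of the called members are also given without it. The map of members by library shows it as the column with the most dark red.

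**Figure D2:**
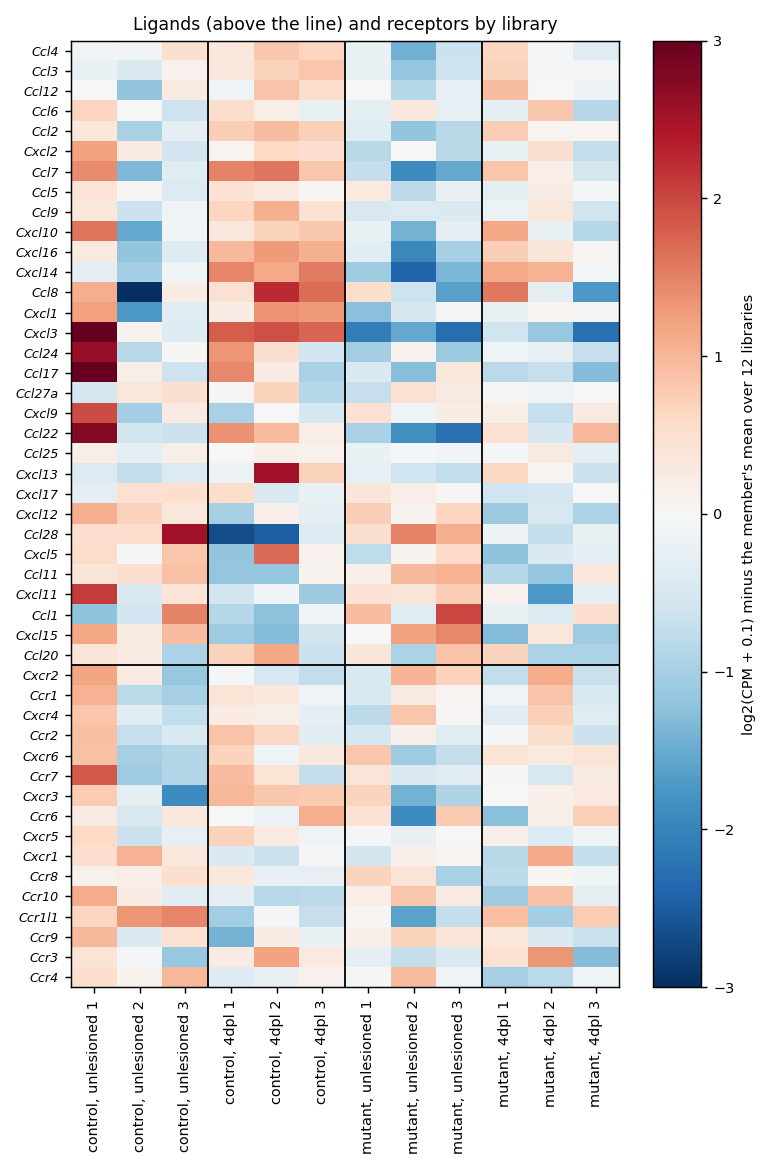
Colour gives log2(CPM + 0.1) of each of the 47 members in each of the 12 libraries, minus that member's mean over the libraries, with colours limited at 3 and members ordered by level per kilobase within ligands (above the line) and receptors (below it). Control unlesioned replicate 1 was highest for 16 members, and control 4dpl replicate 2 was highest for 11.

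Lesion was compared with unlesioned tissue within each genotype and as the mean of both genotypes. A gene was called at p under 0.01 and a Benjamini-Hochberg adjusted p under 0.05 over all 31109 genes tested, in edgeR's quasi-likelihood test. In the mean over genotypes 9 of 46 members were called, 6 higher and 3 lower at 4dpl (19.6% of the members, against 32.8% of all genes tested). This was 13% against 14.2% for higher and 6.52% against 18.6% for lower, so the members had a smaller share of calls than the background, near it in the higher direction. Those that rose were the ligands Cxcl14, Cxcl16, Ccl2, Ccl7, Ccl3 and Cxcl13, and those that fell were the ligands Cxcl12, Ccl28 and Cxcl15. In the control alone Cxcl14 and Cxcl16 were called higher (4.35% of the members, background 5.12%) and Ccl28 lower (2.17%, background 5.01%), 6.52% in all against 10.1% of all genes. In the mutant alone Cxcl14 was called higher (2.17% of the members, background 0.0225%, and 0.135% in either direction) and 0 members lower (background 0.113%). At an unadjusted p under 0.05, 6 members were higher and 6 lower in the control (13% each, against 13.9% and 20.1% of all genes). In the mutant 7 were higher (15.2%, against 15.9%) and 1 lower (2.17%, against 17.9%), and in the mean 9 were higher (19.6%, against 21.3%) and 7 lower (15.2%, against 30.7%). The median log2 change of the 46 members was 0.02 in the control, 0.18 in the mutant and 0.09 in the mean, beside -0.36, -0.17 and -0.28 for all genes tested. A log2 change below 0 was found for 23 members in the control (50%, against 60.9% of all genes), 19 in the mutant (41.3%, against 55%) and 22 in the mean (47.8%, against 58.4%). The control libraries did not overlap for 7 members that were higher at 4dpl (15.2%, against 16.5% of all genes) and for 6 that were lower (13%, against 21.4%), and the mutant libraries for 6 (13%, against 18.8%) and 5 (10.9%, against 23.2%).

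Cxcl14, an ancient chemokine that attracts monocytes and dendritic cells and whose receptor is not settled, gave the smallest p of the members in every lesion comparison. It lies on chromosome 13 from 56288643 to 56296551 on the minus strand of GRCm38. In the control unlesioned libraries Cxcl14 was at 8.55, 5.16 and 9.65 CPM and at 4dpl at 29.3, 23.4 and 31.3 CPM. In the mutant it was at 4.96, 1.91 and 3.99 CPM unlesioned and 23.3, 21.7 and 10.1 CPM at 4dpl. All 6 lesioned libraries lay above all 6 unlesioned ones, which held for 7.44% of all genes tested and for no other member. Cxcl14 rose by a log2 change of 1.84 ± 0.38 (SE, adjusted p = 0.0264) in the control, 2.34 ± 0.39 (adjusted p = 0.0452) in the mutant and 2.09 ± 0.27 (adjusted p = 0.0019) in the mean over genotypes. The change in the mutant minus that in the control was 0.50 ± 0.53 (adjusted p = 1), so the data do not separate the genotypes in how far Cxcl14 rose.

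The call in the mean over genotypes held without each of the 12 libraries in turn. The call in the mutant was lost without any of 7 libraries, which were control 4dpl replicates 1 and 2, mutant unlesioned replicates 2 and 3 and each of the mutant 4dpl libraries, with log2 changes between 2.05 and 2.66 and adjusted p-values up to 0.162. A replicate block ended it too, with an adjusted p of 0.0554 by label number and 0.332 by the study's sample number. The call in the control was lost without control unlesioned replicate 2 or 3 or control 4dpl replicate 1 or 2, with log2 changes between 1.64 and 2.04 and adjusted p-values up to 0.0975.

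RefSeq promoters, each given in a table as 250 bases before a gene's start and 50 after it, were found for 34 of the 47 members (38 entries, GRCm38.p6). Matches were sought on both strands within the 250 upstream bases for 4 motifs, the TATA box (TATAAA), the AP-1 site (TGANTCA), the core of the interferon-stimulated response element (GAAA, then NN, then GAAA) and the NF-kB consensus. The interferon element core was present in 2.98% of all 32851 promoters in the table and in those of Cxcl14 and Cxcl10. The promoter of Cxcl14 is shown because this gene led the lesion response, with the interferon element core in capitals at 172 bases upstream, on the minus strand at chr13:56296552-56296801.
Cxcl14: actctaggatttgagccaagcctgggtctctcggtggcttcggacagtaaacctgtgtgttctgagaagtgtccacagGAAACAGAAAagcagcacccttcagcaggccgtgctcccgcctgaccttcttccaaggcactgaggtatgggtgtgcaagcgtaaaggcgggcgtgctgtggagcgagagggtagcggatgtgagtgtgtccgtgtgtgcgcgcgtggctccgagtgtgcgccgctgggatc

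Cxcl16, a transmembrane chemokine that is shed to bind Cxcr6 and also serves as a scavenger receptor on macrophages, rose as well. Its level was 84.4, 30.2 and 52.2 CPM in the control unlesioned libraries, 135, 167 and 144 at 4dpl, 55.4, 18.04 and 34.2 in the mutant unlesioned libraries and 115, 88.5 and 72.8 CPM at 4dpl. Within each genotype every lesioned library was above every unlesioned one. The log2 change was 1.42 ± 0.40 (SE, adjusted p = 0.0432) in the control, 1.36 ± 0.40 (adjusted p = 0.0621) in the mutant and 1.39 ± 0.28 (adjusted p = 0.00467) in the mean. The call in the control was lost in 8 of 23 alternative fits, with log2 changes between 1.14 and 1.52 and adjusted p-values up to 0.134. One was a fit of only the groups compared (1.36, adjusted p = 0.0509). The others left out control unlesioned replicate 2 or 3, any one control 4dpl library, mutant unlesioned replicate 3 or mutant 4dpl replicate 2. Exons of Cxcl16 share 18.3% of their bases with Zmynd15, and without strand information reads there cannot be told apart. Its receptor Cxcr6, found on activated T cells and natural killer cells, was at 20.2, 5.44 and 5.96 CPM in the control unlesioned libraries, 17.6, 9.97 and 13.8 at 4dpl, 19.6, 5.18 and 6.66 in the mutant unlesioned and 14.6, 13.6 and 14.6 at 4dpl. The groups overlapped for Cxcr6, with a log2 change of 0.41 ± 0.37 (adjusted p = 0.373) in the mean over genotypes.

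The Ccr2 ligands Ccl2 and Ccl7, which draw monocytes out of the blood, rose in the mean over genotypes. Ccl2 was at 246, 99.3 and 161 CPM in the control unlesioned libraries, 329, 371 and 324 at 4dpl, 154, 86.8 and 111 in the mutant unlesioned libraries and 327, 208 and 209 at 4dpl. Ccl7 was at 76.5, 11.1 and 22.2 CPM in the control unlesioned libraries, 80.4, 87.3 and 50.3 at 4dpl, 17.2, 7.50 and 9.74 in the mutant unlesioned libraries and 50.7, 32.8 and 19.8 at 4dpl. Ccl2 was separated within each genotype, whereas for Ccl7 only the mutant groups did not overlap, because control unlesioned replicate 1 was as high as the lesioned libraries. The log2 change in the mean was 1.05 ± 0.23 (adjusted p = 0.00622) for Ccl2 and 1.29 ± 0.40 (adjusted p = 0.0223) for Ccl7. Without control unlesioned replicate 1 the change of Ccl7 was 1.88 (adjusted p = 0.001) in the mean and 2.15 (adjusted p = 0.00916) in the control, where it was 0.99 (adjusted p = 0.22) with all libraries. The call of Ccl7 was lost in 6 of the 12 fits with a library left out, without control unlesioned replicate 3, control 4dpl replicate 1 or 2, mutant unlesioned replicate 2 or 3 or mutant 4dpl replicate 1, with adjusted p-values up to 0.0521.

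The other ligands at this locus were not called. Ccl12, the mouse relative of Ccl2, was at 141, 61.7 and 169 CPM in the control unlesioned libraries, 128, 255 and 203 at 4dpl, 138, 77.7 and 118 in the mutant unlesioned and 269, 140.2 and 127 at 4dpl. These groups overlapped, and the log2 change in the mean was 0.67 ± 0.28 (adjusted p = 0.0689). The receptor Ccr2 was at 164, 54.7 and 63.5 CPM in the control unlesioned libraries, 160.2, 135 and 69.3 at 4dpl, 61.03, 98.2 and 68.7 in the mutant unlesioned and 84.3, 126 and 56.1 at 4dpl. Its groups overlapped too, with a log2 change of 0.30 ± 0.30 (adjusted p = 0.437). The monocyte list, which includes Ccr2, summed to between 2901 and 8982 CPM in the control unlesioned, 2884 and 3480 in the control 4dpl, 2608 and 9422 in the mutant unlesioned and 1999 and 8610 in the mutant 4dpl libraries, and 0 of its 7 genes rose while 1, Plac8, fell, with a median log2 change of -0.52 in the mean over genotypes.

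Ccl3, which recruits and activates macrophages and T cells, rose in the mean over genotypes. It was at 324, 275 and 410.0 CPM in the control unlesioned libraries, 476, 602 and 670.1 at 4dpl, 325, 169 and 245 in the mutant unlesioned libraries and 600.4, 366 and 366 at 4dpl. Within each genotype every lesioned library lay above every unlesioned one. The log2 change in the mean was 0.82 ± 0.22 (adjusted p = 0.0115), with 0.79 ± 0.31 (adjusted p = 0.0933) in the control and 0.85 ± 0.31 (adjusted p = 0.088) in the mutant.

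The neighbours of Ccl3 on chromosome 11 were not called. Ccl4 was at 338, 345 and 508 CPM in the control unlesioned libraries, 452, 635 and 571 at 4dpl, 317, 133 and 231 in the mutant unlesioned and 572, 348 and 283 at 4dpl. Its log2 change in the mean was 0.65 ± 0.25 and its adjusted p in edgeR's quasi-likelihood test was 0.048, while its unadjusted p missed the threshold of 0.01. Ccl9, a ligand of Ccr1, was at 147, 75.3 and 109 CPM in the control unlesioned libraries, 183, 244 and 161 at 4dpl, 83.5, 87.3 and 87.2 in the mutant unlesioned and 104, 149 and 77.5 at 4dpl. The control groups of Ccl9 did not overlap and the mutant groups did, and its log2 change was 0.83 ± 0.29 (adjusted p = 0.0739) in the control and 0.36 ± 0.29 (adjusted p = 0.381) in the mutant. Ccl5 and Ccl6, the other genes of this cluster, changed by 0.18 ± 0.20 and 0.10 ± 0.29 in the mean, with adjusted p-values of 0.481 and 0.791. All 5 genes of the cluster between 83525778 and 83664683 on chromosome 11 had a log2 change above 0 in the mean, of which 1 was called. Among the 6 genes between 82035571 and 82305690 on the same chromosome (Ccl2, Ccl7, Ccl11, Ccl12, Ccl8 and Ccl1), 4 were above 0 and 2 were called.

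Some marker lists rose at 4dpl beside these members and others did not. The microglia list summed to between 1016 and 3337 CPM in the 6 unlesioned libraries and to between 2534 and 4530 CPM in the 6 lesioned ones, and 4 of its 6 genes rose in the mean over genotypes. The border macrophage list (Mrc1, Cd163, Lyve1, Pf4, F13a1, Cbr2 and Ms4a7) summed to between 107.5 and 384 CPM unlesioned and to between 217 and 839 CPM at 4dpl, and 4 of its 7 genes rose. In the mean over genotypes 2 of 5 genes rose in the oligodendrocyte list, 2 of 6 in the oligodendrocyte precursor list, 2 of 6 in the fibroblast and pericyte list and 1 of 6 in the astrocyte list. In the neutrophil list 0 of 7 genes were called and the median log2 change was -0.92, beside -0.28 for all genes tested. The part of these markers in the changes of Cxcl14, Cxcl16, Ccl2, Ccl7, Ccl3 and Cxcl13 was not tested.

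Cxcl13, the ligand of Cxcr5 that attracts B cells and builds lymphoid follicles, was a low riser. It was at 0.338, 0.255 and 0.332 CPM in the control unlesioned libraries, 0.420, 3.23 and 0.829 at 4dpl, 0.387, 0.281 and 0.249 in the mutant unlesioned libraries and 0.796, 0.510 and 0.270 at 4dpl. The control groups did not overlap and the mutant groups did, and control 4dpl replicate 2 held 186 of the 409 counts of the gene over the 12 libraries. The log2 change in the mean was 1.52 ± 0.49 (adjusted p = 0.0267), with 2.27 ± 0.70 (adjusted p = 0.0534) in the control and 0.77 ± 0.70 (adjusted p = 0.437) in the mutant. Without control 4dpl replicate 2 it was 0.91 (adjusted p = 0.122) in the mean, no longer called, and the call was also lost without any of 8 other libraries, all but control 4dpl replicates 1 and 3 and mutant 4dpl replicate 3. It was lost in 14 of 22 alternative fits in all, among them RLE size factors (adjusted p = 0.0356, with an unadjusted value above the threshold), the newer quasi-likelihood option (0.0354, likewise), voom (0.0554) and a replicate block by label number (0.0693) or by the study's sample number (0.159). Cxcr5, carried by B cells, changed by 0.16 ± 0.27 in the mean (adjusted p = 0.655).

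**Figure D3:**
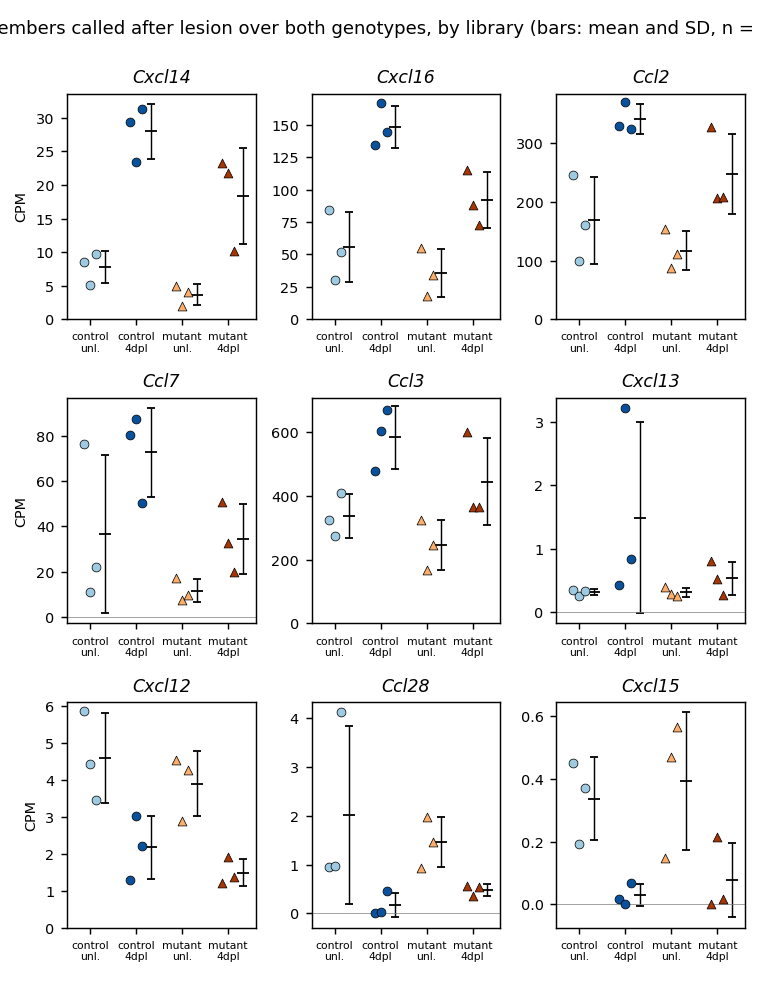
CPM by library for the 9 members called at 4dpl in the mean over genotypes, with the group mean and SD (n = 3) beside the points. The 6 risers are shown first and the 3 members that fell (Cxcl12, Ccl28 and Cxcl15) last, and for Cxcl14 all 6 lesioned libraries lie above all 6 unlesioned ones.

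Cxcl12, which holds Cxcr4-bearing progenitors and leukocytes in place and is made by stromal, vascular and meningeal cells, fell. It was at 5.88, 4.44 and 3.46 CPM in the control unlesioned libraries, 1.29, 3.02 and 2.21 at 4dpl, 4.53, 2.89 and 4.28 in the mutant unlesioned libraries and 1.21, 1.91 and 1.37 at 4dpl. Within each genotype every lesioned library lay below every unlesioned one, and the log2 change was -1.23 ± 0.27 (SE, adjusted p = 0.00595) in the mean, -1.08 ± 0.38 (adjusted p = 0.0743) in the control and -1.39 ± 0.39 (adjusted p = 0.0588) in the mutant. The call in the mean was lost with the study's sample number as a replicate block (-1.24, adjusted p = 0.056). Its receptor Cxcr4, found on leukocytes, microglia and progenitors, was at 60.8, 26.8 and 20.3 CPM in the control unlesioned libraries, 40.4, 38.4 and 28.3 at 4dpl, 19.7, 61.1 and 35.2 in the mutant unlesioned and 27.1, 56.5 and 26.4 at 4dpl. The Cxcr4 groups overlapped and the log2 change in the mean was -0.04 ± 0.32 (adjusted p = 0.918). The endothelial list summed to between 27.9 and 47.4 CPM unlesioned and 25.9 and 46.4 CPM at 4dpl, and 0 of its 6 genes were called in either direction in the mean. In the fibroblast and pericyte list 2 genes rose and 1 fell.

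Ccl28, a mucosal chemokine that binds Ccr10 and Ccr3, fell from a low level. It was at 0.958, 0.977 and 4.12 CPM in the control unlesioned libraries, 0.0175, 0.0347 and 0.461 at 4dpl, 0.940, 1.97 and 1.47 in the mutant unlesioned libraries and 0.568, 0.349 and 0.539 at 4dpl, which in counts came to 51, 46 and 211 against 1, 2 and 20 in the control and 51, 105 and 65 against 25, 13 and 30 in the mutant. All 6 lesioned libraries were below all 6 unlesioned ones, as for 7.42% of all genes tested. The log2 change was -3.62 ± 0.93 (adjusted p = 0.037) in the control, -1.58 ± 0.84 (adjusted p = 0.194) in the mutant and -2.60 ± 0.63 (adjusted p = 0.00813) in the mean. The call in the control was lost in 6 of 23 alternative fits. In a fit of only the groups compared the control change was -3.71 (adjusted p = 0.0701). The call was also lost without control unlesioned replicate 2 or 3, control 4dpl replicate 1 or 2 or mutant unlesioned replicate 3. Without control unlesioned replicate 3, the library with 211 counts, the control change was -2.54 (adjusted p = 0.126). The change in the mutant minus that in the control was 2.04 ± 1.21 (adjusted p = 1). Ccr10, a receptor of skin and mucosal lymphocytes, changed by -0.85 ± 0.43 in the mean (adjusted p = 0.121).

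Cxcl15, known as lungkine for its expression in lung epithelium, was at 0.451, 0.191 and 0.371 CPM in the control unlesioned libraries, 0.0175, 0 and 0.0691 at 4dpl, 0.147, 0.469 and 0.566 in the mutant unlesioned libraries and 0, 0.215 and 0.0180 at 4dpl. The control groups did not overlap and the mutant groups did. With 123 counts over all 12 libraries it was among the lowest members tested. Its log2 change in the mean was -2.96 ± 0.87 (adjusted p = 0.0177), and the call was lost without control 4dpl replicate 1 or mutant unlesioned replicate 3.

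**Figure D4:**
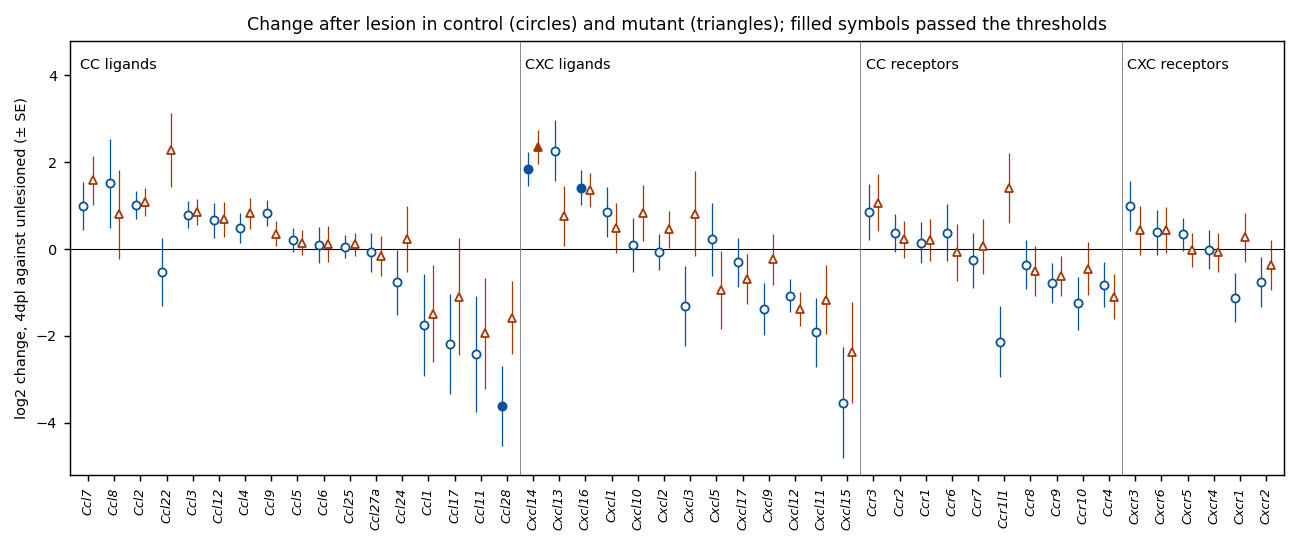
Log2 change at 4dpl against unlesioned tissue (± SE from the fit) of the 46 members tested, for the control (circles) and the mutant (triangles), grouped by class and ordered by the mean change within a class. Filled symbols mark the changes that passed the thresholds, Cxcl14, Cxcl16 and Ccl28 in the control and Cxcl14 in the mutant.

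Among Cxcl1, Cxcl2, Cxcl3 and their receptor Cxcr2, the axis that recruits neutrophils, no gene was called at 4dpl with all libraries. Without control unlesioned replicate 1, Cxcl1 and Cxcl3 were called higher in the mean over genotypes. Their log2 changes were then 1.24 (adjusted p = 0.00888) and 1.43 (adjusted p = 0.00371), against 0.67 and -0.25 with all libraries. Cxcl2 was at 656, 343 and 189 CPM in the control unlesioned libraries, 301, 429 and 404 at 4dpl, 158, 283 and 158 in the mutant unlesioned and 249, 397 and 174 at 4dpl. Cxcr2 was at 384, 201 and 77.5 CPM in the control unlesioned libraries, 167, 122 and 101 at 4dpl, 123, 345 and 273 in the mutant unlesioned and 102, 366 and 107 at 4dpl. Both genes varied widely within groups, and their log2 changes in the mean were 0.19 ± 0.30 (adjusted p = 0.615) and -0.56 ± 0.40 (adjusted p = 0.265). The neutrophil list was at 76240, 85090 and 39330 CPM in the control unlesioned libraries, 29080, 24020 and 25260 at 4dpl, 24690, 97020 and 57840 in the mutant unlesioned and 17890, 89620 and 27060 at 4dpl. The 5 libraries highest for this list (control unlesioned replicates 1 and 2, mutant unlesioned replicates 2 and 3 and mutant 4dpl replicate 2) were also the 5 highest for Cxcr2, which is not on the list. The part of neutrophil RNA in the level of Cxcr2 was not tested.

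Ccr1, another receptor of neutrophils and monocytes, was not called either. It was at 256, 71.1 and 61.5 CPM in the control unlesioned libraries, 163, 153 and 115 at 4dpl, 89.4, 149 and 131 in the mutant unlesioned and 115, 224 and 89.6 at 4dpl. Ccl6, its ligand, was at 578, 369 and 239 CPM in the control unlesioned libraries, 530.2, 425 and 314 at 4dpl, 304, 455 and 312 in the mutant unlesioned and 302, 649.5 and 203 at 4dpl. The groups overlapped in both genes, whose log2 changes in the mean were 0.18 ± 0.34 (adjusted p = 0.679) and 0.10 ± 0.29 (adjusted p = 0.791). Cxcr1, the low-level relative of Cxcr2, was at 1.30, 1.93 and 1.15 CPM in the control unlesioned libraries, 0.629, 0.538 and 0.852 at 4dpl, 0.571, 0.994 and 0.951 in the mutant unlesioned and 0.455, 2.09 and 0.503 at 4dpl. The control groups of Cxcr1 did not overlap, with a log2 change of -1.12 ± 0.57 (adjusted p = 0.18), and mutant 4dpl replicate 2 was the highest library of all.

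The interferon-induced ligands of Cxcr3, Cxcl9, Cxcl10 and Cxcl11, which attract activated T cells, were not called. Cxcl10 was at 179.9, 20.1 and 55.3 CPM in the control unlesioned libraries, 74.9, 94.3 and 104 at 4dpl, 50.95, 22.1 and 48.3 in the mutant unlesioned and 133, 50.8 and 32.5 at 4dpl. Its groups overlapped and its log2 change in the mean was 0.46 ± 0.45 (adjusted p = 0.409), beside -0.81 ± 0.42 (adjusted p = 0.127) for Cxcl9 and -1.54 ± 0.56 (adjusted p = 0.0415, with an unadjusted value above the threshold) for Cxcl11, which shares 41.7% of its exonic bases with Gm2673. Cxcr3 was at 10.97, 5.25 and 1.68 CPM in the control unlesioned libraries, 12.97, 11.4 and 11.1 at 4dpl, 10.3, 2.36 and 3.38 in the mutant unlesioned and 6.46, 7.22 and 7.91 at 4dpl. The control groups of Cxcr3 did not overlap and the mutant groups did, with log2 changes of 0.99 ± 0.57 (adjusted p = 0.23) and 0.43 ± 0.57 (adjusted p = 0.604). The T cell list was between 45.5 and 119 CPM in the control unlesioned and between 82.0 and 107 CPM in the control 4dpl libraries, and 0 of its 7 genes were called.

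The other 19 members tested, among them Ccl5, Cxcl9, Cxcl11, Cxcr5 and Ccr10, are given by range. Their log2 changes in the mean over genotypes lay between -2.18 (Ccl11) and 1.16 (Ccl8), 6 were above 0 and 0 were called. Ccr6, which draws Th17 cells and B cells toward its ligand Ccl20, was at 2.07, 1.19 and 2.15 CPM in the control unlesioned libraries, 1.73, 1.51 and 3.78 at 4dpl, 2.36, 0.394 and 3.04 in the mutant unlesioned and 0.659, 1.93 and 2.88 at 4dpl, and its groups overlapped. Ccr7 was at 33.7, 4.38 and 5.04 CPM in the control unlesioned libraries, 17.9, 12.4 and 5.64 at 4dpl, 12.1, 6.84 and 7.36 in the mutant unlesioned and 9.57, 6.63 and 11.2 at 4dpl. The control 4dpl libraries lay above control unlesioned replicates 2 and 3 and below replicate 1, and the mutant groups overlapped.

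In the control, the count of called members turned on single libraries. It was 3 with all libraries and 11 without control unlesioned replicate 1, when Ccl2, Ccl7, Ccl9, Ccr1, Ccr7, Cxcl1, Cxcl3 and Cxcr3 joined the 3 (23.9% of the members, against 21.8% of all genes in that fit). In the control the changes of Cxcl3 and Ccr7 turned from -1.31 and -0.26 to 2.02 and 1.37 without that library, and that of Cxcl16 went from 1.42 to 1.88. Uncalled members turned too without that library. Ccl17 went from -2.19 to 1.02, Ccl22 from -0.53 to 1.64, Ccl24 from -0.77 to 1.02, Cxcl2 from -0.07 to 0.53 and Cxcr4 from -0.01 to 0.63. Ccr2, Cxcr6, Cxcl10 and Ccl22 stood at 1.07, 1.30, 1.30 and 1.64 in the control without it and were not called. The count in the control was 0 without control unlesioned replicate 2 or 3 or control 4dpl replicate 1 or 2, fits in which between 1 and 114 of all genes were called. It was 1 (Cxcl14) without mutant unlesioned replicate 3, and 2 (Ccl28 and Cxcl14) without control 4dpl replicate 3 or mutant 4dpl replicate 2. In the mutant the count was 6 without control unlesioned replicate 1 (Ccl2, Ccl22, Ccl7, Cxcl12, Cxcl14 and Cxcl16, 13% of the members against 13.3% of all genes), 4 without mutant unlesioned replicate 1 (Ccl2, Ccl3, Cxcl14 and Cxcl16, 8.7% against 10.2%) and 0 without control 4dpl replicate 1 or 2, mutant unlesioned replicate 2 or 3, or any one of the mutant 4dpl libraries. In the mean over genotypes it was 12 without control unlesioned replicate 1 (26.1% of the members, against 38% of all genes), when Ccl9, Ccl22, Cxcl1 and Cxcl3 joined and Cxcl13 left. It was 6 without mutant unlesioned replicate 3 (Ccl2, Ccl28, Ccl3, Cxcl12, Cxcl14 and Cxcl16, 13% against 23.6%). Without control unlesioned replicate 1 the changes in the mean were 2.15 for Cxcl14, 1.63 for Cxcl16, 1.26 for Ccl2, 0.83 for Ccl3, -1.10 for Cxcl12, -2.74 for Ccl28 and -2.80 for Cxcl15, all still called, and 1.58 for Cxcl13, which was not.

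The genotypes were compared unlesioned and at 4dpl, and each comparison shares its libraries with the lesion comparisons. In unlesioned tissue edgeR called 0 of 46 members and 0% of all genes. At an unadjusted p under 0.05, 9 members were lower in the mutant (19.6%, against 3.5% of all genes tested) and 0 higher (against 1.72%, and 5.22% in either direction). They were Cxcl3, Ccl22, Ccl7, Cxcl14, Ccr1l1, Ccl17, Ccl24, Cxcl2 and Ccl4. A log2 change below 0 was found for 40 of 46 members (87%, against 48.2% of all genes), and the median was -0.33 beside 0.02 for all genes. The libraries of the genotypes did not overlap for 6 members, all lower in the mutant (Ccl22, Ccl4, Ccr1l1, Cxcl14, Cxcl3 and Cxcr1, 13%, against 6.28% of all genes), and for 0 that were higher (against 4.09%). Without control unlesioned replicate 1, the library that stood apart, 4 members were lower and 1 higher at an unadjusted p under 0.05 in edgeR's test. In that fit 10% of all genes had such a p in either direction. Of the 46 members, 23 lay below 0 (against 48.7% of all genes in that fit), so the tilt toward lower levels in unlesioned mutant tissue rested on that library. Among the 9, the change without that library went from -1.67 to -0.53 for Ccl7, from -3.43 to -0.24 for Ccl17, from -2.003 to -0.24 for Ccl24 and from -0.99 to -0.41 for Cxcl2, while it was -1.03 for Cxcl14, -2.49 for Ccr1l1 and -0.905 for Ccl4, and none was called either way. DESeq2 called 1 member in this comparison, Ccl22, and voom 0.

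At 4dpl edgeR again called 0 members and 0% of all genes, DESeq2 and voom 0 members. At an unadjusted p under 0.05, 3 members were lower in the mutant (6.52%, against 1.77% of all genes tested) and 0 higher (against 5.15%, and 6.92% in either direction). They were Cxcl3, Ccl9 and Cxcl13, with log2 changes of -3.10 (SE 1, adjusted p = 0.419), -0.83 ± 0.29 (adjusted p = 0.478) and -1.51 ± 0.68 (adjusted p = 0.698). A log2 change below 0 was found for 33 of 46 members (71.7%, against 45.9% of all genes). Leaving out control unlesioned replicate 1 cannot test this number, because that library is in neither of the groups compared. Leaving out 1 library moved this number between 28 (without mutant 4dpl replicate 3) and 37 (without mutant 4dpl replicate 2). The libraries of the genotypes did not overlap, lower in the mutant, for Ccl9, Cxcl1, Cxcl14, Cxcl16, Cxcl3 and Cxcr3 (6 of 46, 13%, against 5.44% of all genes), and none was separated in the other direction (against 7.34%). At 4dpl the fibroblast and pericyte list summed to 34.1 to 48.9 CPM in the mutant against 57.9 to 119.7 CPM in the control, and the T cell list to 70.3 to 73.0 against 82.0 to 107 CPM, without overlap. The border macrophage list summed to 216.8 to 489.7 CPM against 482.9 to 839 CPM, which overlapped, and 0 genes of these lists were called. The dendritic cell and endothelial lists also leaned lower, with median log2 changes of -0.24 and -0.19. The remaining lists leaned higher in the mutant, from 0.07 for astrocytes and 0.08 for microglia to 0.65 for oligodendrocytes and 0.82 for neutrophils. The part of these cell types in the lower chemokine levels was not tested.

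Cxcl3 and Cxcl14 were separated by genotype both unlesioned and at 4dpl, lower in the mutant (2 of 46, 4.35%, against 1.02% of all genes tested). Cxcl3, a neutrophil attractant that acts through Cxcr2, was at 80.4, 3.40 and 2.40 CPM in the control unlesioned libraries, 11.4, 12.4 and 10.9 in the control at 4dpl, 0.682, 1.03 and 0.566 in the mutant unlesioned and 2.07, 1.40 and 0.593 in the mutant at 4dpl. Every mutant library lay below every control library, lesioned or not. The log2 change between genotypes was -5.23 ± 1.10 (adjusted p = 0.693) unlesioned, which fell short of a call, and -3.10 at 4dpl as above. Without control unlesioned replicate 1, at 80.4 CPM the highest library by far, it was -1.93 (adjusted p = 0.143) unlesioned and -3.10 (adjusted p = 0.0335) at 4dpl, where it then passed the thresholds. Without a filter on low counts the unlesioned change was -5.28 (adjusted p = 0.0164). For Cxcl14 the changes were -1.11 ± 0.38 (adjusted p = 0.762) unlesioned and -0.61 ± 0.37 (adjusted p = 0.845) at 4dpl.

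The relatives of Cxcl3 were not separated in this way. Cxcl1 did not overlap between genotypes at 4dpl only, with a log2 change of -1.10 ± 0.57 (adjusted p = 0.783), and Cxcl2 changed by -0.99 ± 0.42 (adjusted p = 0.927) unlesioned and -0.47 ± 0.42 (adjusted p = 0.925) at 4dpl. All 3 lie within one cluster on chromosome 5, between 90759360 and 90905938. Their promoters are shown together because they share the NF-kB consensus, which was found in 7.25% of all promoters in the table and in 10 of the 38 of members (26.3%). Capitals mark it in each, beginning 73 bases upstream of the start in Cxcl3, 71 in Cxcl1 and 97 in Cxcl2, each made of a match on either strand that overlap in all but their end bases, and in Cxcl3 also the TATA box at 30 bases upstream, a motif found in 12.4% of all promoters. All are on the plus strand of GRCm38.p6, Cxcl3 at chr5:90785851-90786100, Cxcl1 at chr5:90890995-90891244 and Cxcl2 at chr5:90903649-90903898, and a match is a stretch of letters, not a measured binding site.
Cxcl3: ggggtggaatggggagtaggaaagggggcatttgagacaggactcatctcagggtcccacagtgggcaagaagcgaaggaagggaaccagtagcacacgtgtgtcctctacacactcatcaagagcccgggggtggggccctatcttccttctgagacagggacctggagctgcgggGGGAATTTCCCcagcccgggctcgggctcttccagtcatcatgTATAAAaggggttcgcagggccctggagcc
Cxcl1: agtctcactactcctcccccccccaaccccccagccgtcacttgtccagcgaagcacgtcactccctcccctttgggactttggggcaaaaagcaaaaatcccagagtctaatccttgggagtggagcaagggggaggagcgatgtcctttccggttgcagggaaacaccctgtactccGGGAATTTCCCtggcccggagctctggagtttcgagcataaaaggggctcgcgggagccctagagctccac
Cxcl2: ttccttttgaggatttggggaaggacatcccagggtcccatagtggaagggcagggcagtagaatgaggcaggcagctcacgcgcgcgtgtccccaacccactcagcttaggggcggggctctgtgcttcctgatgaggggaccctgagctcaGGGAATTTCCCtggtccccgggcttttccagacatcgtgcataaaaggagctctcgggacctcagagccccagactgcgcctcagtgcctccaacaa

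Ccl22 was at 9.52, 0.871 and 0.821 CPM in the control unlesioned libraries, 3.58, 2.65 and 1.54 in the control at 4dpl, 0.627, 0.300 and 0.204 in the mutant unlesioned and 1.86, 0.913 and 2.75 in the mutant at 4dpl. In unlesioned tissue every mutant library was below every control library, with a log2 change of -3.29 ± 0.88 (adjusted p = 0.693), and at 4dpl the genotypes overlapped, with -0.49 ± 0.79 (adjusted p = 0.974). Without control unlesioned replicate 1 the unlesioned change was -1.15 (adjusted p = 0.574), and the gene was not called. Ccl17, which is made beside Ccl22 in dendritic cells and lies near it on chromosome 8, and Ccl24, an eosinophil attractant, had a mean of 1.80 ± 2.77 and 4.91 ± 6.01 CPM (SD, n = 3) in the control unlesioned group, an SD above the mean that came from the same library.

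**Figure D5:**
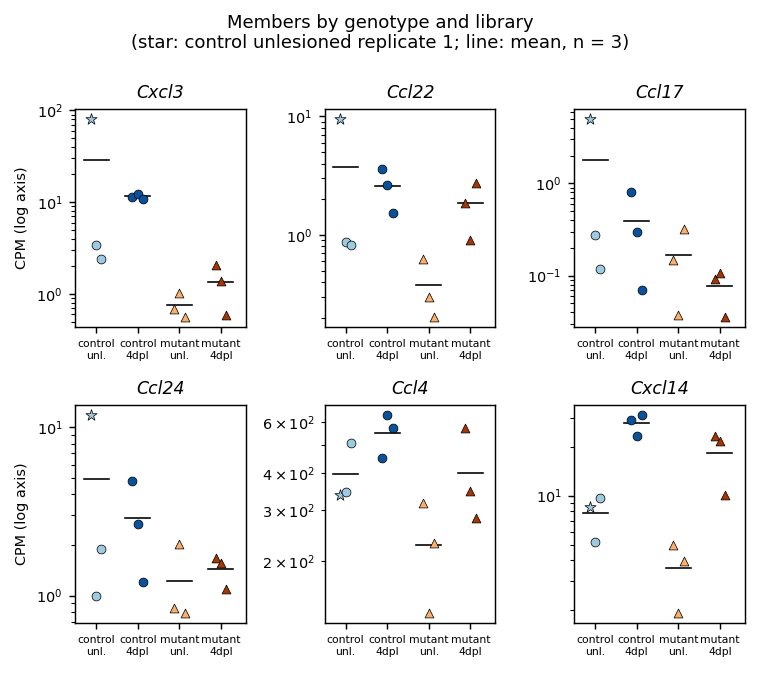
CPM by library (log axis) for 6 members with an unadjusted p under 0.05 between the genotypes in unlesioned tissue, with control unlesioned replicate 1 as a star and the group mean (n = 3) as a line. For Cxcl3 every mutant library lies below every control library, whereas for Ccl17 and Ccl24 the control mean is carried by the starred library.

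The interaction, the lesion change in the mutant minus that in the control, was not called for any of the 46 members (0% of all genes tested). At an unadjusted p under 0.05, 2 members, Ccl22 and Ccr1l1, were above 0 (4.35%, against 2.66% of all genes tested) and 0 were below (against 1.14%, and 3.81% in either direction), and DESeq2 and voom called 0. Ccr1l1, a receptor-like relative of Ccr1, was at 0.564, 0.956 and 1.06 CPM in the control unlesioned libraries, 0.105, 0.312 and 0.161 at 4dpl, 0.332, 0.0375 and 0.159 in the mutant unlesioned and 0.682, 0.107 and 0.611 at 4dpl. All control 4dpl libraries lay below the unlesioned ones and the mutant groups overlapped, with an interaction of 3.54 ± 1.15 (adjusted p = 1) on the log2 scale and 255 counts in all. For Ccl22 the interaction was 2.81 ± 1.16 (adjusted p = 1) and without control unlesioned replicate 1 it was 0.66 (adjusted p = 0.905).

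The rest of the chemokine system was read from 52 other genes, all of them tested, that cover ligands and receptors outside the symbol rule, receptor signalling and upstream cytokines with NF-kB. In the mean over genotypes 11 rose (21.2%, against 14.2% of all genes tested) and 2 fell (3.85%, against 18.6%) at 4dpl, and the median log2 change was 0.28, beside -0.28 for all genes. In the control 3 rose (5.77%, against 5.12%) and in the mutant 0 were called. The 3 that rose in the control were Pf4, a platelet and macrophage chemokine, Rgs1, which damps chemokine receptor signalling, and Tnf, which induces many chemokines. Pf4 was at 15.8, 8.16 and 27.98 CPM in the control unlesioned libraries, 127, 257 and 75.1 at 4dpl, 10.98, 6.75 and 5.03 in the mutant unlesioned and 75.7, 47.5 and 18.8 at 4dpl. It was separated within each genotype and, with a log2 change of 2.89 ± 0.41 (adjusted p = 0.00213), rose most of the list in the mean. Cx3cr1, the microglial fractalkine receptor, rose by a log2 change of 1.08 ± 0.28 (adjusted p = 0.0107) in the mean, while its ligand Cx3cl1 changed by 0.29 ± 0.23 (adjusted p = 0.311). Mif, Pik3r5, Vav1, Elmo1, Lyn, Nfkbiz and Tnfaip3 rose as well, by log2 changes of between 0.62 and 0.998.

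Of the atypical receptors, which take up chemokines without signalling through G proteins, Ackr4 and Gpr182 were called, both lower and both at low levels. No library exceeded 1.60 CPM for Ackr4 or 1.04 CPM for Gpr182. Ackr4, a scavenger of homeostatic CC ligands, fell by 1.17 on the log2 scale (SE 0.35, adjusted p = 0.0203) in the mean over genotypes, and Gpr182, an endothelial scavenger, by 1.93 (SE 0.57, adjusted p = 0.0188). Ackr1, Ackr2 and Ackr3 changed by -0.80 ± 0.31 (adjusted p = 0.0501), -1.30 ± 0.87 (adjusted p = 0.232) and 0.33 ± 0.25 (adjusted p = 0.301). Ccrl2, which presents chemerin, changed by 0.77 ± 0.34 (adjusted p = 0.079). No gene of the list was called between the genotypes or for the interaction, which was the case for all genes tested.

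The 7 members under the count minimum were Ccl19, Ccl21a, Ccl26, Ccl19-ps1, Ccl19-ps3, Ccl21b and Ccl27b. Ccl19 did not exceed 0.430 CPM in any library, Ccl21a 0.159 and Ccl26 0.176, and Ccl19-ps3, Ccl21b and Ccl27b had a count of 0 in all 12. Ccl19, Ccl21a and Ccl27a have near-identical copies in the mouse genome and uniquely aligned reads were counted, so their levels are uncertain. Of the described members, 7 shared exonic bases with another gene, and beside Cxcl11 and Cxcl16 the share was 21.5% for Ccr9 and under 6% for Cxcl10, Cxcr5, Ccl25 and Ccl27a.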

How the data were processed

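The authors enriched cells on Percoll gradients and sequenced low-input RNA as 100 bp paired-end reads. Per their methods reads were aligned with BWA to mm10, and the submitters' processing notes also name STAR and DESeq2 1.2.5. The deposited values are raw counts of uniquely aligned reads on exons per Ensembl GRCm38 gene, by featureCounts. The strand setting is not given in the sources used here, and all 37 mitochondrial genes were listed at 0. Counts were normalized by TMM and tested with edgeR 4.0.16 (quasi-likelihood, filterByExpr, 31109 genes, all 4 groups in 1 fit) in R 4.3.3, with contrasts for lesion within each genotype and averaged, genotype in each tissue, and the interaction. SE is the log2 change divided by the square root of F. A call required p under 0.01 and a Benjamini-Hochberg adjusted p under 0.05. Alternatives used DESeq2 1.42.0, limma 3.58.1 (voom), other normalization, filters, blocks and leaving out each library. The code was tested on simulated data. Members and lists were chosen with earlier results of these data known. Values by library are given in the order of replicates 1, 2 and 3 for Cxcl14, all called members, the 4 highest per class per kilobase and the 3 smallest p-values per contrast. Other members are given by range and count. A gene of the symbol rule and a pair of marker genes are not reported here and are left out of all member and list counts. Depth of 34805086 to 67251544 counts limits only the lowest members, and counting intervals were not computed because the spread between libraries enters each test.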

Additional observations from a re-analysis of the deposited data

How the results depend on the processing

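No log2 change of the members recomputed under every alternative (those called and those named for genotype or interaction) changed sign. Without control unlesioned replicate 1, however, the lesion changes of Ccl17, Ccl22, Ccl24, Ccr7, Cxcl2, Cxcl3 and Cxcr4 in the control changed sign. So did those of Ccl24, Ccr7, Cxcl3 and Cxcr4 in the mean over genotypes. For lesion in the control, where 3 members were called, DESeq2 called 8, a fit of only the groups compared 1, no filter on low counts 5, voom with sample weights 13, the newer quasi-likelihood option 8 and an adjusted p under 0.10 gave 10. For lesion in the mutant, where 1 was called, these gave 6, 1, 2, 8, 4 and 7 in that order. In the mean over genotypes, where 9 were called, voom gave 18 and an adjusted p under 0.10 gave 16. The share of all genes called is not given for these fits or for the block fits below. Their counts therefore do not show whether members were called more often than other genes. With single libraries left out, that share ran from 0.003% to 21.8% for lesion in control. In unlesioned tissue DESeq2 and no filter each called 1 member between the genotypes. Leaving out 1 library gave 0 to 11 members in the control, 0 to 6 in the mutant, 6 to 13 in the mean, 0 between the genotypes unlesioned, 0 to 1 at 4dpl and 0 for the interaction. Cxcl14, Cxcl16, Ccl28, Ccl3 and Ccl2 were called in the mean under every alternative run. Libraries with the same label number were not shown to pair: their deviations correlated at 0.189, 0.0517 and 0.189 in the control, where each library correlated best with its own number, and at -0.0301, 0.0728 and -0.0703 in the mutant, where not all did. Fitting a replicate block by label number, edgeR called 4 members in the control, 0 in the mutant and 9 in the mean, and 0 between genotypes in either tissue and for the interaction. With the study's sample numbers as the block the counts were 6, 0 and 11, and 0 for the interaction, and Cxcl12 and Cxcl13 in the mean and Cxcl14 in the mutant were not called. The cause of these differences was not tested. RLE size factors moved the median of all genes in the mean by -0.098 on the log2 scale.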

Other observations

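Several chemokine genes that were called in no comparison differed between single libraries by more than the groups did. Control 4dpl replicate 2 was the highest library for 11 of the 47 members, and mutant unlesioned replicate 2 was the lowest for 10. Each group had 3 libraries, so 1 library could move a group mean. Ccl28, Cxcl15, Cxcl13, Ccl17 and Ccr1l1 had few counts. RNA was measured and secreted protein was not.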
